A study of Mus musculus with 11 samples.

Results

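The CIDE and perilipin genes encode the best known proteins of the lipid droplet surface, and all 8 listed members (Cidea, Cideb, Cidec, Plin1, Plin2, Plin3, Plin4 and Plin5) were found among the 29955 gene symbols measured by RNA-seq in 11 samples of mouse im-scWAT cells. Members were chosen by gene symbol and not by a cutoff on any measured value, although earlier results of these data were known. The im-scWAT cells are 1 preadipocyte line from inguinal subcutaneous fat, immortalized with retroviral large T antigen. A time course of 6 untransduced samples covered day 0 (preadipocytes at confluence), day 4 and day 8 of differentiation, with 0.5 μM rosiglitazone (ROS, a PPARγ ligand, giving beige adipocytes) or without it (white adipocytes), 1 sample for each combination. The day 0 samples carry a ROS label each, but were taken before the media differed, and are used as a pair (n = 2). The other 5 samples were all day 8 adipocytes made with 0.5 μM ROS, and all carried the hairpin sh-mJmjd1a against the endogenous demethylase Jmjd1a (Kdm3a in the files) together with human JMJD1A from a retroviral LTR promoter. The JMJD1A was wild type in samples WT A and WT B (n = 2), or S265A, in which the serine phosphorylated by protein kinase A is an alanine, S265D, a phosphomimetic form, or S265D-H1120Y, which also lacks the iron-binding histidine needed for catalysis (1 sample each). The labels and the study's methods differ on whether ROS was withdrawn on day 7, so ROS-treated here means only that ROS was given. Nothing in the labels says that samples of a pair came from separate cultures, so p-values measure only the spread between these samples, which may be technical.

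Lipid droplets store triglyceride in a core covered by a phospholipid monolayer and by coat proteins. Perilipins lie on this surface and govern the access of lipases. Perilipin 1 (Plin1) is the gatekeeper of hormone-stimulated lipolysis in adipocytes, perilipin 4 (Plin4) coats small nascent droplets, perilipin 2 (Plin2) and perilipin 3 (Plin3) are found in most tissues, and perilipin 5 (Plin5) is known from oxidative tissues, where it links droplets to mitochondria. CIDE proteins gather where droplets touch and let lipid pass from the smaller to the larger droplet. Cidec (also called Fsp27) acts in white fat, Cidea is best known from brown and beige fat, and Cideb from liver.

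FPKM is scaled to exon length and to the sample's mapped total, so levels can be compared between genes of different length. The samples rested on 3.10 to 5.29 Gb of mapped bases, and 100 bases on a transcript of 1 kb correspond to an FPKM of 0.0189 to 0.0322. A gap of at least 2-fold separated the day 0 pair in 736 of 15030 genes (4.90%) and separated WT A from WT B in 4308 of 15837 genes (27.2%). Kdm3a had an FPKM of 20.4 and 17.9 in the WT pair, 13.0 in S265A, 23.0 in S265D and 28.5 in S265D-H1120Y, against 15.1 to 23.2 in the untransduced samples, so S265A alone lay below the untransduced range. No transduced sample without the hairpin was analysed here, so these values do not check the knockdown, and it was not tested whether reads of human JMJD1A add to them. The transduced samples are named as labelled throughout. Adipocyte markers (Adipoq, Fabp4, Lep, Lpl and Retn) summed to 264.8 and 261.8 FPKM at day 0 and to 9276 to 33737 FPKM in the other 9 samples. Macrophage markers (Emr1, Cd68, Csf1r and Ptprc) summed to 0.541 to 4.31 FPKM in the time course and to 5.03 to 21.7 FPKM in the transduced samples, mostly Cd68, while Emr1 and Ptprc were listed at 0 in all 11 samples, as were the 3 skeletal muscle markers (Myod1, Myog and Ckm). Endothelial markers (Pecam1, Cdh5 and Tek) summed to at most 3.77 FPKM and the hepatocyte markers Alb and Apoa1 to at most 3.91 FPKM.

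PPARγ, the receptor that ROS activates, binds with RXR to pairs of the recognition motif AGGTCA set 1 base apart, and several members are textbook PPARγ targets. RefSeq (GRCm38.p6) gave 9 promoter windows, the 250 bases before a start site, for 7 of the 8 genes, with Cidea having no entry. The window of Plin2 (chr4:86670060-86670309, minus strand) and that of the upstream start of Plin5 (chr17:56117549-56117798, minus strand) are shown because they were those that held a recognition motif on either strand, in capitals, and the window of Plin1 (chr7:79732777-79733026, minus strand) is shown as that of a strongly rising member without one.
Plin2: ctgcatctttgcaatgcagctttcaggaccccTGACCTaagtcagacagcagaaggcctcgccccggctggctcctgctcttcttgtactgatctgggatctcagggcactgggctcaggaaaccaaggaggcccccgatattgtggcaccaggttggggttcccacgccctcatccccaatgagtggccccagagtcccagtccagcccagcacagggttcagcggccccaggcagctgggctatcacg
Plin5: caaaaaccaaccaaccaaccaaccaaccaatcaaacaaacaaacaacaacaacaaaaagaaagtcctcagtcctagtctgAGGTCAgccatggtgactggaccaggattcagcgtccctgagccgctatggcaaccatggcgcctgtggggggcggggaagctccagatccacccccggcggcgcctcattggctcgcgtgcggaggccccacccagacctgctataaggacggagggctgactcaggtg
Plin1: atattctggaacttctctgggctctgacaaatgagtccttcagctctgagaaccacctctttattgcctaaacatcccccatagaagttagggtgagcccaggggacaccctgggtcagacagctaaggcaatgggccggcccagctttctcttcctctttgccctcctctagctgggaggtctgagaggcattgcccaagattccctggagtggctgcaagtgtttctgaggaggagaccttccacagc
The recognition motif began 218 bases before the start of Plin2 and 170 bases before that of Plin5. A recognition motif was present in 2 of the 9 windows and in 14.0% of all 32851 windows of this length. In Plin2 it was part of a spaced pair that began 225 bases before the start, with 2 mismatches to the full pair. Such a pair, with at most 2 mismatches, was found in 1 of the 9 windows and in 3.24% of all windows. With at most 1 mismatch it was found in 0 of the 9 windows and in 0.484% of all windows. These matches describe letters in a window and were not tested for binding.

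**Figure D1:**
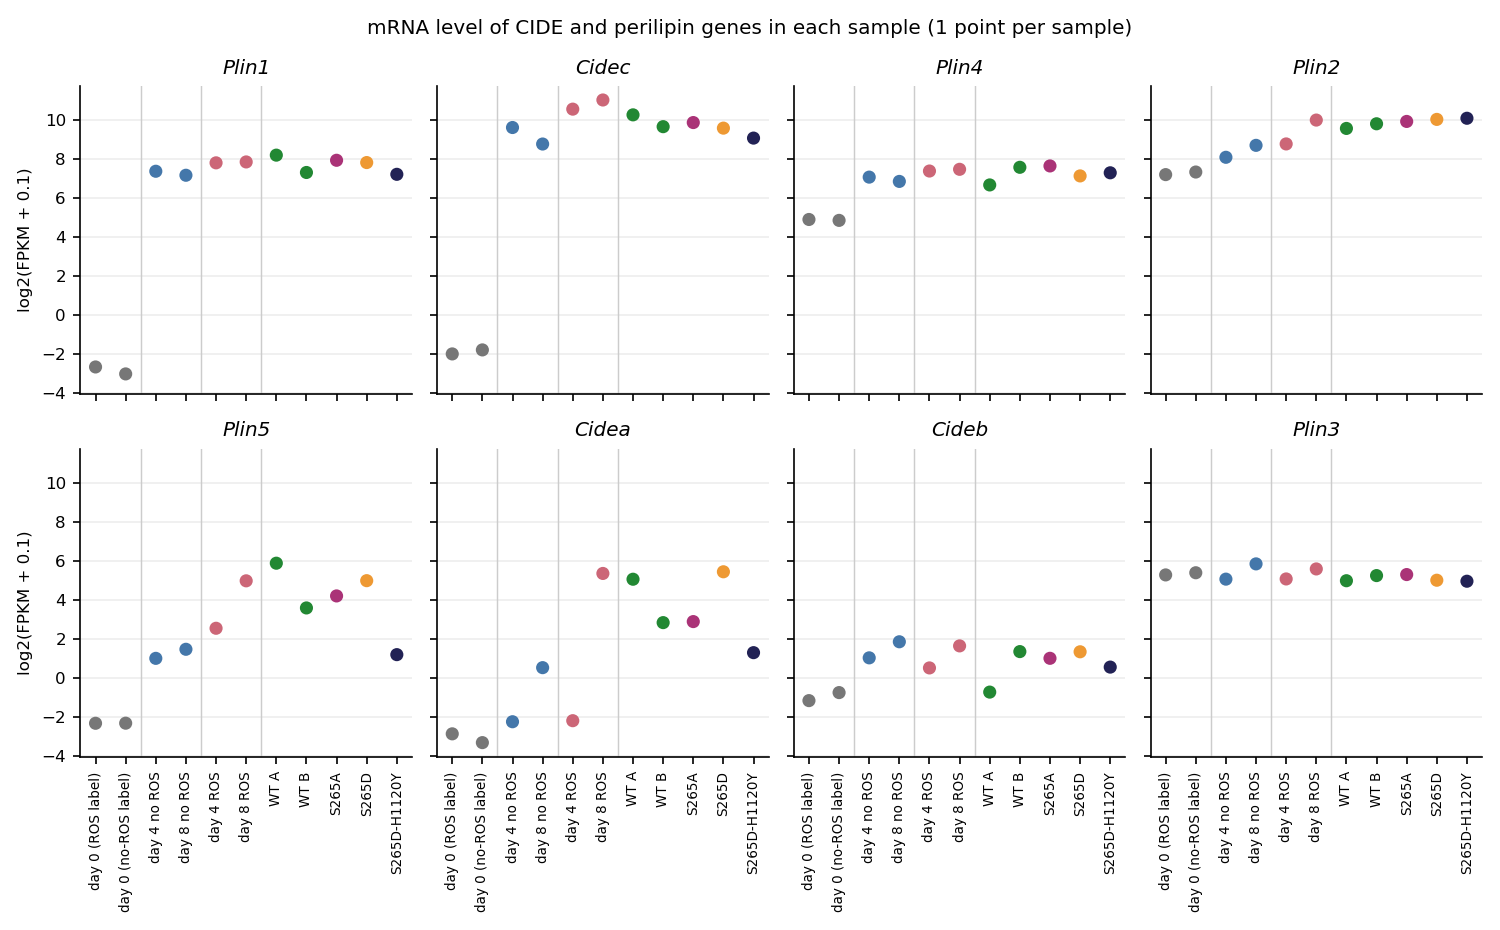
The level of each member in each of the 11 samples, as log2(FPKM + 0.1) with 1 point per sample. Both day 0 points lie far below the rest for Plin1 and Cidec, Plin3 stays near the same level throughout, and Cidea and Plin5 are spread widely among the samples taken at day 8.

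Differentiation was examined first. By day 4, 5 of the 8 members had risen over day 0 (limma, adjusted p under 0.05) and 0 had fallen, against a background of 19.8% of 16400 genes called higher. By day 8, 7 of 8 had risen, with 23.6% of 16400 genes called higher. Here the samples with and without ROS at a day were taken as a group of 2, so that the effect of ROS counts as spread. The median log2 difference of the members was 2.04 at day 4 and 4.13 at day 8, and that of all genes was 0.01 and -0.03. The rise went with the adipocyte marker sum given above, and in these bulk samples more adipocytes and more RNA per adipocyte cannot be told apart.

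The adipocyte perilipin Plin1 (chr7:86866050-86877662 in mm9, minus strand) was almost absent from preadipocytes. Its FPKM was 0.06 and 0.02 at day 0, which rests on 498 and 198 mapped bases. At day 4 it was 223 with ROS and 165 without ROS, and at day 8 it was 231 and 143.5. The lowest later sample was at 143.5, far above both day 0 samples, and the highest level of all, 293, was that of WT A. The log2 difference from day 0 was 10.43 ± 0.30 (SE, limma adjusted p = 0.000132) at day 4 and 10.35 ± 0.30 (adjusted p = 0.000115) at day 8, so the level was reached by day 4. The size depended on the pseudocount, as both day 0 values lay below it. Both differences were still called with a pseudocount of 1, at 7.54 and 7.46. The older symbol Plin names a second entry that shares 3794 bases of this locus.

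Cidec (chr6:113374630-113385749, minus strand), which drives fusion of droplets in white fat, followed the same course at a higher level. At day 0 the FPKM was 0.15 and 0.19. It was 1507 with ROS and 784 without at day 4, and 2087 with ROS and 436 without at day 8. No member reached a higher level in any sample than Cidec at day 8 with ROS. Its log2 differences from day 0 were 11.98 ± 0.77 (SE, limma adjusted p = 0.000812) at day 4 and 11.79 ± 0.77 (adjusted p = 0.000722) at day 8. A pseudocount of 1 gave 9.86 and 9.67, both still called. Without ROS the day 8 level was 0.556 times that of day 4, and with ROS it was 1.38 times. Cidec made up 94.4% to 99.9% of the summed CIDE FPKM in every sample after day 0.

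Plin4 (chr17:56240014-56249225, minus strand) was present in preadipocytes, with an FPKM of 29.2 ± 0.668 (SD, n = 2) at day 0. It reached 167 with ROS and 134 without at day 4, and 177 and 115 at day 8. The lowest later sample, WT A at 102, was still above both day 0 samples. The log2 difference was 2.35 ± 0.25 (SE, limma adjusted p = 0.00331) at day 4 and 2.29 ± 0.25 (adjusted p = 0.00300) at day 8. Its gene starts 1798 bases beyond the end of that of Plin5 on the same strand, but the levels of these neighbours differed. The FPKM of Plin5 (chr17:56251024-56256971) was 0.10 in both day 0 samples, 5.73 with ROS and 1.90 without at day 4, and 31.4 with ROS and 2.66 without at day 8.

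Plin5 rose by 4.10 ± 1.19 on the log2 scale at day 4 (SE, limma adjusted p = 0.0480) and by 5.55 ± 1.19 at day 8 (adjusted p = 0.0174). The call at day 4 was close to the threshold. It was lost without either day 0 sample (adjusted p = 0.189 and 0.195), without the day 4 sample with ROS (0.212) or without the day 4 sample without ROS (0.104). It was also lost with a pseudocount of 1 (0.187), with no minimum FPKM (0.0644), with rescaled samples (0.0509) and in a fit over all 11 samples (0.0808). The size depended on the pseudocount and on single libraries. With a pseudocount of 1 the log2 differences were 2.01 at day 4 and 3.31 at day 8, and the day 8 difference was 3.79 without the sample with ROS and 7.30 without the other.

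Plin2 (chr4:86302469-86315963, minus strand) was already the leading perilipin of preadipocytes, with an FPKM of 154 ± 9.99 (SD, n = 2). At day 4 it was 437 with ROS and 272 without, and at day 8 it was 1022 and 416. All later samples were above the day 0 pair, and the 5 transduced samples (759 to 1090) were close to day 8 with ROS. The log2 difference was 1.16 ± 0.47 (SE, limma adjusted p = 0.111) at day 4 and 2.08 ± 0.47 (adjusted p = 0.0204) at day 8. Plin3 (chr17:56418385-56429934, minus strand) was 40.3 ± 2.21 (SD, n = 2) at day 0, 33.6 and 33.3 at day 4 and 48.0 and 57.4 at day 8, with and without ROS. Its 11 samples spanned 30.9 to 57.4, and the log2 difference was -0.27 ± 0.16 (adjusted p = 0.237) at day 4 and 0.38 ± 0.16 (adjusted p = 0.103) at day 8. A second entry, M6prbp1, shares 1899 bases of this locus.

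The make-up of perilipin mRNA therefore differed between days. Of the summed perilipin FPKM, Plin2 and Plin3 made up 68.2% and 18.0% in the day 0 sample labelled ROS, and 69.5% and 18.1% in the other. At day 4 Plin1 took 25.8% with ROS and 27.3% without, and Plin4 took 19.3% and 22.1%. At day 8 Plin2 was back at 67.7% with ROS and at 56.6% without. Plin5 was the smallest share throughout the time course after day 0, at 0.313% to 2.08%, and it reached 4.73% in WT A.

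**Figure D2:**
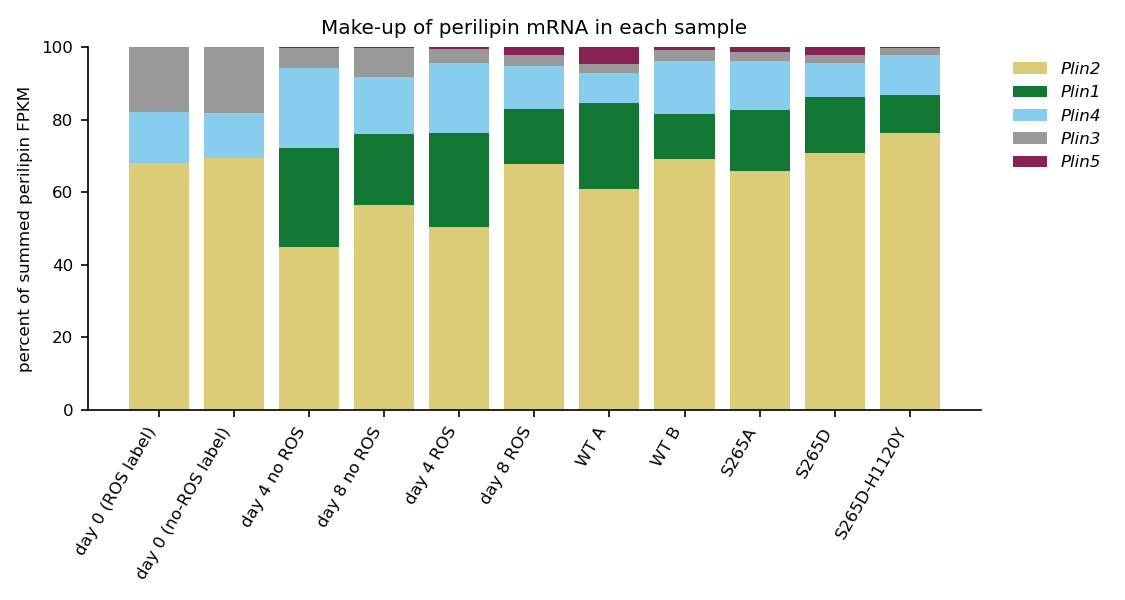
Each bar is 1 sample and shows, in percent, how the summed FPKM of the 5 perilipins is divided among them. Plin3 shrinks from 18.0% and 18.1% at day 0 to 2.17% to 7.82% later, Plin1 and Plin4 are largest at day 4, and Plin2 leads in every sample.

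The remaining CIDE genes were low in the first days. Cideb (chr14:56372892-56377261, minus strand), the liver member, had an FPKM of 0.345 and 0.492 at day 0, 1.32 with ROS and 1.94 without at day 4, and 3.02 and 3.51 at day 8. It rose by 1.73 ± 0.25 on the log2 scale at day 4 (SE, limma adjusted p = 0.00743) and by 2.71 ± 0.25 at day 8 (adjusted p = 0.00188), at a level far below that of Cidec. With a pseudocount of 1 the log2 differences were 0.88 and 1.59, both still called, while in a fit over all 11 samples neither was called (adjusted p = 0.248 and 0.108). Its locus shares 1580 bases with 2610027L16Rik, and the antisense strand held 5.34% to 57.7% of its 2-strand FPKM, against 1.52% to 2.28% over all genes. The part of the overlap in the level of Cideb was not tested. Cidea (chr18:67503218-67527448, plus strand) had an FPKM of 0.0367 (199 mapped bases) in the day 0 sample labelled ROS and was listed at 0 in the other. At day 4 it was 0.118 with ROS and 0.110 without, or 695 and 398 mapped bases, and at day 8 it was 40.8 and 1.34. Both day 8 samples were above all earlier ones. The log2 difference from day 0 was 0.87 ± 1.51 (SE, limma adjusted p = 0.675) at day 4 and 6.04 ± 1.51 (adjusted p = 0.0264) at day 8. The day 8 value was 3.62 without the sample with ROS and 8.45 without the sample without ROS. With a pseudocount of 1 it was 3.28 and the call was lost (adjusted p = 0.0879), as it was without any 1 of the day 0 or day 4 samples (0.0580 to 0.132).

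The number of calls depended on single libraries of this small design, and not among the members alone. Over all genes, the number called higher moved in the same direction as that of the members in each of the fits listed here. At day 4 it was 3 without the first day 0 sample, 4 without the second, and 4 without either day 4 sample. It was 7 without either day 8 sample, when Cidea and Plin2 were called too. At day 8 it was 4 without either day 0 sample (Cideb, Cidec, Plin1 and Plin4), 6 without either day 4 sample, and 8 without the sample with ROS, when Plin3 was called too. In a single fit over all 11 samples, Cidec and Plin1 alone were called at day 4.

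Other genes of droplet biology, in lists drawn up by known role, were tested in the same fits, where 19.8% of all genes were called higher at day 4 and 23.6% at day 8. Of 10 tested droplet assembly genes, 8 rose and 1 fell at day 4, and the same counts were obtained at day 8. Among those that rose at day 4 were Dgat2, which makes triglyceride at the droplet (log2 difference 6.19), and the acyltransferases Agpat9 (5.51) and Agpat2 (5.44). Acsl3, an acyl-CoA synthetase of nascent droplets, fell by 1.01 on the log2 scale at both days. Of 7 lipolysis genes, 6 rose at each day, and the largest differences at day 4 were those of G0s2, the inhibitor of adipose triglyceride lipase (10.80), of the monoglyceride lipase gene Mgll (8.29) and of the hormone-sensitive lipase gene Lipe (7.39). The exception was Hilpda, at -0.64 at day 4 and 0.10 at day 8. Of 16 further genes for droplet surface proteins, 6 rose at day 4 and 9 at day 8, led by Clstn3 (6.55 at day 4 and 7.20 at day 8), and 0 fell. The median log2 difference of this list was 0.32 at day 4 and 0.79 at day 8, against 3.69 and 3.61 for assembly and 6.53 and 7.03 for lipolysis. The preadipocyte markers Pdgfrb and Dlk1 fell at both days. At day 4 Pdgfrb fell by 2.53 and Dlk1 fell by 2.54 on the log2 scale, and Pdgfra rose by 1.75. Of the markers of other cell types, Csf1r was at a log2 difference of -1.83 and Pecam1 at 1.10 at day 4, both called, and Apoa1, listed at 0 in both day 0 samples, was called higher, all at FPKM under 4.

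Beige and white adipocytes were compared next, at 1 sample per condition. At day 8, 4 of the 8 members had at least 2-fold more FPKM with ROS than without (Cidea, Plin5, Cidec and Plin2) and 0 had at most 0.5 times, while 4.00% of 15536 genes were 2-fold higher with ROS. Over all genes 622 were higher and 2366 lower, or 853 and 1838 after rescaling the samples by their median gene. At day 4, 1 of 8 (Plin5) was 2-fold higher, against 2.20% of 15246 genes. These calls are made by size alone. The median ratio of the 8 members was 2.03 at day 8 and 1.30 at day 4, and that of all genes was 0.857 and 0.954. Because the median of all genes was 0.20 lower with ROS at day 8 on the log2 scale, the members' median difference of 0.99 became 1.18 when samples were rescaled by their median gene.

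Cidea differed most. Its FPKM was 30.5 times higher with ROS at day 8 (40.8 over 1.34), but 1.07 times at day 4, when both samples were close to 0.11. From day 4 to day 8 it increased 346-fold with ROS and 12.1-fold without. Plin5 differed already at day 4, by 3.01-fold (5.73 over 1.90), and by 11.8-fold at day 8 (31.4 over 2.66). Cidec was 1.92 times higher with ROS at day 4 and 4.79 times at day 8, and its day 8 level was above that of day 4 with ROS and below it without. Plin2 was 1.61 times and 2.46 times higher in the same order.

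The other members differed less. Plin1 was 1.35 times higher with ROS at day 4 and 1.61 times at day 8, and Plin4 1.24 and 1.54 times. Cideb was at 0.683 and 0.860 times and Plin3 at 1.01 and 0.835 times. After rescaling, the log2 difference at day 8 was -0.02 for Cideb and -0.07 for Plin3. Between day 4 and day 8, 4 of 8 members increased by at least 2-fold with ROS (Cidea, Plin5 at 5.48-fold, Plin2 at 2.34-fold and Cideb at 2.28-fold), against 6.62% of 15206 genes. Without ROS, 1 of 8 did so (Cidea), against 9.60% of 15607 genes.

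**Figure D3:**
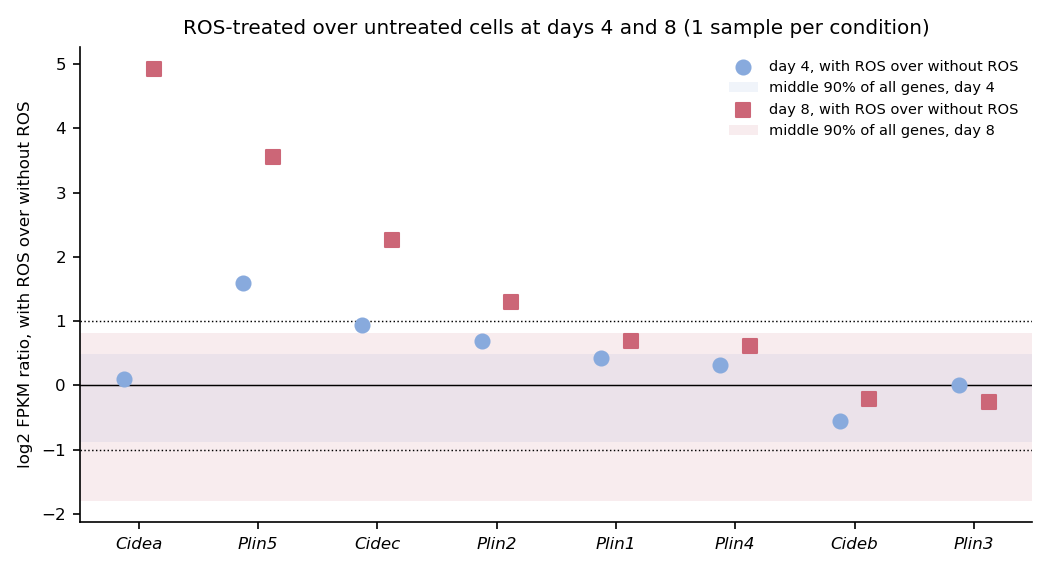
The log2 of the FPKM ratio of ROS-treated over untreated cells for each member, at day 4 (circles) and day 8 (squares), with 1 sample per condition. Dotted lines mark 2-fold, and the shaded bands hold the middle 90% of genes above 0 in both samples. At day 8 Cidea, Plin5, Cidec and Plin2 lie above the band, and the other 4 members lie within it.

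In limma, where the day 0 pair gave the spread with 1 residual degree of freedom, 0 of 8 members were called at day 8 and 0% of 16400 genes, with 5011 genes and 5 members at an unadjusted p under 0.05. The adjusted p was 0.0972 for Cidea (log2 difference 4.83 ± 0.33, SE), Cidec (2.26 ± 0.16) and Plin5 (3.51 ± 0.07), and 0.0990 for Plin2 (1.30 ± 0.12). With genes restricted to an FPKM of at least 1, those 4 members were called, at adjusted p from 0.0466 to 0.0487, with 163 genes higher and 732 lower. Without either day 0 sample the adjusted p was 1 for every gene, as the spread then came from the WT pair. At day 4, 0 of 8 members and 0% of 16400 genes were called, with 1862 genes and 3 members at an unadjusted p under 0.05, and Plin5 had an adjusted p of 0.417.

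A test of whether the effect of ROS differed between day 4 and day 8 called 0 of 16400 genes (limma, lowest adjusted p = 0.256), with 2763 at an unadjusted p under 0.05. In that test the effect on Cidea was larger at day 8 by 4.78 ± 0.46 on the log2 scale (SE) and that on Plin5 by 1.97 ± 0.10, both with an adjusted p of 0.256. Cidec followed with 1.32 ± 0.23 (adjusted p = 0.275). The day 0 pair, in which these genes were close to 0, cannot show how much cultures vary at day 8.

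The genes of the droplet lists were compared by the same fold rule, by which 4.00% of 15536 genes were higher and 15.2% lower with ROS at day 8. At day 8, 1 of 10 assembly genes (Lpin1, a phosphatidate phosphatase, at a log2 difference of 1.52) was 2-fold higher with ROS. Of 7 lipolysis genes, Pnpla2 (1.59), which encodes adipose triglyceride lipase, and Lipe (1.11) were 2-fold higher and Pnpla3 (-1.29) was lower. Of 16 other surface genes, 3 were higher (Clstn3 at 1.55, Hsd17b13 at 1.42 and Acsl1 at 1.28) and 1 was lower. Hsd17b13 was near the minimum level, at 0.595 FPKM with ROS and 0.160 without. The 3 beige markers (Ucp1, Cox8b and Elovl3) summed to 179 FPKM with ROS and 46.4 without. The preadipocyte markers summed to 134 and 547, mostly Ly6a (108 and 495). The adipocyte markers summed to 33737 and 9276, mostly Fabp4 (31402 and 7631), while Retn and Lep were lower with ROS. The part of these differences in cell state in the values of the members was not tested.

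JMJD1A mutants were compared with WT in the transduced day 8 adipocytes, to ask whether phosphorylation of S265 and demethylase activity bear on expression. The 2 WT samples themselves were far apart for 3 members. In WT A and WT B, Cidea was 33.2 and 7.03, Plin5 was 58.8 and 11.9, and Cideb was 0.503 and 2.44. Cidea and Plin5 were thus 4.73-fold and 4.94-fold higher in WT A, and Cideb was 4.86-fold higher in WT B. For the other members the pair differed by 1.18-fold (Plin2) to 1.87-fold (Plin4). The marker lists also parted the pair. In WT A and WT B the beige markers summed to 157 and 16.8 FPKM, the preadipocyte markers to 136 and 549 and the adipocyte markers to 14032 and 28666. Most of the adipocyte sum was Fabp4 (12393 and 26902), and Lpl (406 and 849) was also lower in WT A. Adipoq (978 and 738), Retn (255 and 176) and Lep (0.123 and 0.0166) were higher in WT A. The part of these markers in the values of the members was not tested.

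In S265A, Cidea was at 7.29, which is 0.362 times the WT mean of 20.1 ± 18.5 (SD, n = 2). It was the single member at 0.5 times or less of the mean, against 6.40% of 15681 genes, with Plin5 just outside at 0.518 times. Against WT A, 2 of 8 members were lower (Cidea at 0.219 times and Plin5 at 0.311 times), with 8.32% of 15669 genes. In the same comparison 1 of 8 was higher (Cideb at 3.79 times), with 10.7% of genes. Against WT B, 0 of 8 were lower, with 7.95% of 15706 genes, and Cidea was at 1.04 times and Plin5, at 18.3, was 1.54 times WT B. The call on Cidea therefore rested on WT A. In limma 0 of 8 members and 0% of 16402 genes were called, with 107 genes and 0 members at an unadjusted p under 0.05, and Cidea had a log2 difference of -1.06 ± 1.19 (SE, adjusted p = 1).

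In S265D, Cidea was 43.4, the highest of all 11 samples, at 2.15 times the WT mean. It was 1 of 8 members at least 2-fold above the mean, against 4.11% of 15748 genes. Against WT A, Cideb was the 1 of 8 (4.83-fold, 13.1% of 15788 genes) and Cidea was 1.30 times WT A. Against WT B, 2 of 8 were higher, Cidea by 6.17-fold and Plin5 by 2.65-fold (5.28% of 15734 genes). Plin5, at 31.6 in S265D, lay between both WT samples. In limma 0 of 8 members and 0% of 16402 genes were called, with 99 genes and 0 members at an unadjusted p under 0.05, and Cidea had a log2 difference of 1.50 ± 1.19 (SE, adjusted p = 1).

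The catalytic mutant S265D-H1120Y had the lowest Cidea and Plin5 of the transduced samples. Cidea was 2.35 against 43.4 in S265D, a ratio of 0.0542, and Plin5 was 2.18 against 31.6, a ratio of 0.0691. Both were also below each WT sample, at 0.0707 times WT A and 0.334 times WT B for Cidea, and at 0.0371 and 0.183 times for Plin5. These were the 2 of 8 members at 0.5 times S265D or less, against 8.66% of 15760 genes. The remaining ratios ran from 0.563 (Cideb) to 1.12 (Plin4), with Cidec at 0.702, Plin1 at 0.658 and Plin2 at 1.04.

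In limma 0 of 8 members and 0% of 16402 genes differed between S265D-H1120Y and S265D, with 187 genes and 0 members at an unadjusted p under 0.05. The log2 difference was -4.15 ± 1.38 (SE, adjusted p = 1) for Cidea and -3.79 ± 1.42 (adjusted p = 1) for Plin5. With a minimum FPKM of 1 or in a fit over all 11 samples, 2 members had an unadjusted p under 0.05 and 0 were called. The fit over all 11 samples drew part of its spread from the day 0 pair. Without either WT sample the spread came from the day 0 pair alone, in which Cidea and Plin5 were close to 0. Such a fit cannot show the spread among transduced samples. Adipoq was 396 FPKM in S265D-H1120Y and 589 to 978 in the other transduced samples. Retn was 79.5 FPKM against 162 to 255, at a log2 difference of -1.28 from S265D (limma adjusted p = 1). Lpl, at 569 FPKM, was within the range of the other transduced samples (406 to 849), as was Lep, at 0.0265 (0 to 0.123). The adipocyte marker sum, most of which is Fabp4 (14128 FPKM here), was 15173 FPKM, between WT A (14032) and the other 3 (24447 to 28666). Of the macrophage markers, Cd68 was 21.7 against 5.00 to 16.6 and Csf1r was 0.022 against 0.014 to 0.034, with Emr1 and Ptprc at 0. The beige markers summed to 79.9 FPKM in S265D-H1120Y, against 111 in S265D, 35.5 in S265A, 157 in WT A and 16.8 in WT B. Of these markers Ucp1 (0.0528) was the lowest of the transduced samples, while Cox8b (57.8) and Elovl3 (22.0) lay within the range of the others. The part of these marker values in the lower Cidea and Plin5 was not tested.

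**Figure D4:**
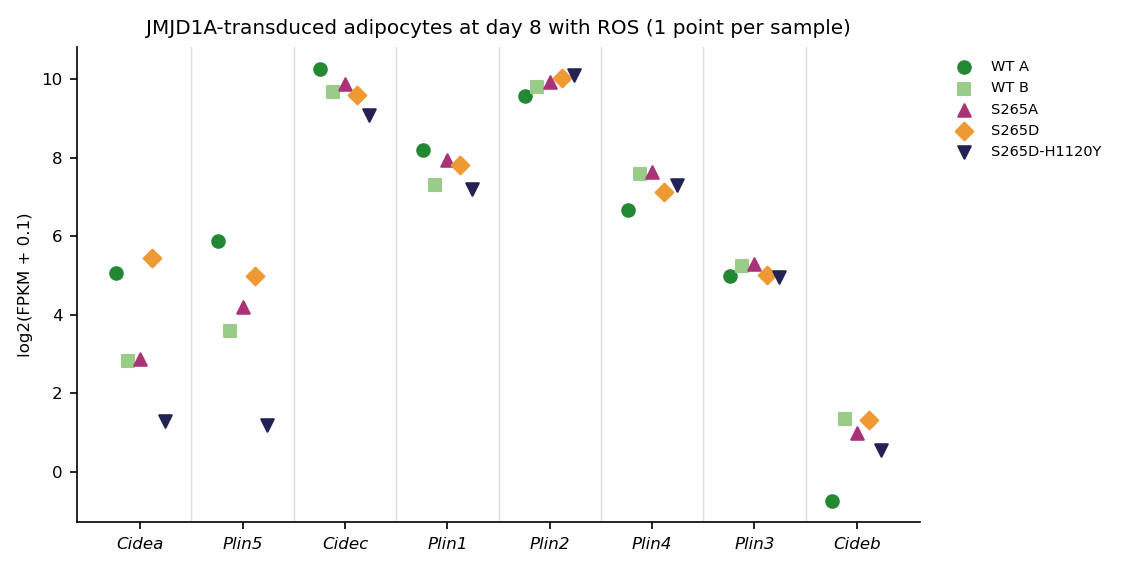
The level of each member in the 5 transduced day 8 samples, as log2(FPKM + 0.1) with 1 point per sample. For Cidea and Plin5 the pair WT A and WT B is far apart and S265D-H1120Y lies below both, while Plin2 and Plin3 differ little among the 5 samples.

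Among the droplet lists, 1 of 10 assembly genes (Agpat2, log2 difference -1.54), 1 of 7 lipolysis genes (Pnpla3, -1.45) and 3 of 16 other surface genes were lower by 2-fold or more in S265D-H1120Y than in S265D, and 2 surface genes (Hsd17b13 and Mettl7b) were higher. Over all genes 8.66% were lower and 5.62% higher in that comparison. In S265D against the WT mean the numbers were 1 lipolysis gene higher (Hilpda, 1.45) and 1 surface gene lower (Hsd17b13), with 4.11% of all genes higher and 4.56% lower. In S265A 2 surface genes were lower than the WT mean (Hsd17b13 and Mettl7b), with 6.40% of all genes lower. All of these list genes had an adjusted p of 1 in limma.

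Across samples the members fell in order as follows. For Cidea the order was S265D, day 8 with ROS and WT A (43.4, 40.8 and 33.2), then S265A and WT B (7.29 and 7.03), then S265D-H1120Y and day 8 without ROS (2.35 and 1.34). For Plin5 the order was WT A, S265D, day 8 with ROS, S265A, WT B, day 4 with ROS, day 8 without ROS, S265D-H1120Y and day 4 without ROS. Most of these groups are 1 sample with no spread of its own, so neighbours in either order cannot be called different, and the WT pair is 4.73-fold apart for Cidea and 4.94-fold for Plin5. The ratios of S265D-H1120Y to S265D given above (0.0542 and 0.0691) are wider gaps than those of the pair, but each sets 1 sample against 1. Against WT B the ratio of S265D-H1120Y was 0.334 for Cidea, a narrower gap than that of the pair, and 0.183 for Plin5. The gap of a single pair does not show how far cultures vary, so these gaps were not tested. For Cidec, Plin1 and Plin4 the lowest 2 samples were the day 0 pair, which stood apart from the other 9. Day 8 without ROS was the lowest of those 9 for Cidec (436) and Plin1 (143.5), and WT A was the lowest for Plin4 (102). For Cideb the highest was day 8 without ROS (3.51) and WT A (0.503) was next to the day 0 pair. For Plin3 the order ran from day 8 without ROS (57.4) to S265D-H1120Y (30.9) with small steps.

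The genes whose profiles were most like the members, by Pearson r of log2(FPKM + 0.1) over the same 11 libraries, were Gpd1 (0.998), Sort1 and Adipoq (both 0.996) for Cidec, and Pex11a (0.998, beside the Plin entry of the same locus) and G0s2 (0.997) for Plin1. They were Acacb and Efna5 (both 0.982) for Plin5, MAT2B (0.979) for Cidea, Tmem66 (0.988) for Plin2, Ahcyl2 (0.982) and Fabp4 (0.981) for Plin4, AK006651 (0.955) for Cideb, and Lamp1 (0.928) for Plin3 beside its own second entry M6prbp1 (0.971). These values include the contrast between day 0 and all later samples. Over the 9 samples after day 0, chosen after seeing the data, the r between members was 0.851 for Cidea with Plin5, 0.837 for Plin1 with Plin5 and 0.807 for Cidea with Plin2, and 0.257 for Cidea with Cidec. In the same 9 samples the closest genes were MAT2B and Acsf2 (both 0.976) for Cidea and Rdh16 (0.970) for Plin5. These are descriptions of a few samples of 1 cell line that share the day, ROS and JMJD1A differences.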

How the data were processed

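Total RNA of 11 samples was sequenced by the authors from TruSeq libraries. Per the study's methods, reads were aligned to UCSC transcripts and to mm9 with the Burrows-Wheeler aligner (version not given in the sources used here) and realigned locally, and FPKM was calculated by strand. The authors deposited, for 55419 transcripts, the FPKM, its log10 and its log2, and the mapped bases as a coverage signal. Since bases rather than reads were counted, no count model was used. For each symbol the sense transcript flagged as representative by the authors was used.

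Differences were tested with limma 3.58.1 (R 4.3.3) on log2(FPKM + 0.1), which understates changes of low genes, over genes that reached an FPKM of 0.1 in any sample of the fit, with Benjamini-Hochberg adjustment at 0.05. The script was checked on simulated data. The time course was fitted as 3 days of 2 samples, and for ROS and the mutants each experiment was fitted alone. For ROS and the mutants, fits that left out a day 0 or WT sample took in all remaining samples of both experiments. Comparisons of single samples were also called by fold (FPKM ratio of at least 2 or at most 0.5) without a test and without a pseudocount. Alternatives changed the pseudocount, the minimum, the transcript, the scaling, the fit and the samples. Depth is given in mapped bases, so no counting interval was computed. All 8 members are named, with the 3 or fewer largest genes of each droplet list and the nearest profiles. A few list genes outside that rule (Acsl3 and Hilpda at days 4 and 8, and the cell type markers named singly) were named after their values were seen. Members, lists and tests were chosen with earlier results of these data known. Coordinates are 1-based in mm9, and promoter windows are from RefSeq for GRCm38.p6, a different build. Other steps used pandas 2.3.3 and numpy 2.4.6 under Python 3.11.15, with matplotlib 3.10.9 for plots.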

Additional observations from a re-analysis of the deposited data

Results flagged for a closer look

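The antisense strand of Plin5 gave an FPKM of 0.132 at day 4 with ROS, above both day 0 samples. The sense strand had 5.73, so the antisense share was 2.24%, against 1.90% over all genes of that sample, and this was the 1 sample above both levels at an antisense FPKM of at least 0.1. The other day 4 sample, without ROS, was also above both levels but under that minimum, with an antisense FPKM of 0.0987 and a share of 4.94% against 1.94%. The differences were not tested.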

How the results depend on the processing

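Between day 0 and day 4 the number of members called was 5, between 3 and 7 when 1 sample was left out, and 2 in a fit over all 11 samples, where 847 genes rose in place of 3245 (918 to 4231 without 1 sample). At day 8 it was 7, and between 4 and 8 when 1 sample was left out, with 1432 and 1477 genes rising without either day 0 sample and 1487 in a fit over all 11 samples, in place of 3863. For ROS at day 8, limma called 4 members in place of 0 with a minimum FPKM of 1. The fold calls of ROS at day 8 stayed at 4 members in every setting, while genes higher and lower went from 622 and 2366 to 219 and 632 (pseudocount of 1), 1332 and 3698 (no minimum), 314 and 1215 (minimum of 1) and 853 and 1838 (rescaled). At day 4 the members called by fold were 2 in place of 1 after rescaling, and genes higher and lower were 364 and 575 in place of 335 and 687. With a pseudocount of 1 or no minimum, genes higher and lower were 11 and 28 or 1395 and 1493 there, 61 and 149 or 1456 and 2504 in S265A (548 and 1003), 87 and 102 or 1580 and 2141 in S265D (647 and 718), and 186 and 318 or 1903 and 2493 in S265D-H1120Y (885 and 1365), with the same numbers of members called. Without 1 WT sample the fold calls went from 0 to 3 members in S265A and from 1 to 2 in S265D, in place of 1 each. The log2 difference of Cidea in S265A was -1.06, with 0.0529 without WT A and -2.17 without WT B, and that of Cideb in S265D was 1.03, with -0.00983 without WT A and 2.07 without WT B. For S265D-H1120Y the 2 members stayed called by fold in every setting run. The cause of these changes was not tested. The groups compared share no replicate numbers in the labels, but the samples labelled with and without ROS can be taken as 2 series over the days. With series as a block (an additive fit of day and ROS), 5 and 7 members were called at day 4 and day 8, as without it, and Plin5 at day 4 had an adjusted p of 0.0236 (limma) in place of 0.0480. Depth limits Cidea, Plin1 and Plin5 at day 0, where a value rests on 0 to 896 mapped bases.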

Other observations

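Day 8 adipocytes with ROS from the untransduced line and the 5 transduced samples differ in transduction as well as in JMJD1A, and the labels do not say which were cultured together, so their values are given side by side without a test. Cidec was 2087 FPKM in the untransduced sample and 538 to 1230 in the transduced ones, all of which were lower. The same held for Plin3 (48.0 against 30.9 to 39.3) and Cideb (3.02 against 0.503 to 2.44). Plin2 was 1022 and 759 to 1090, Plin1 was 231 and 148 to 293, and Plin4 was 177 and 102 to 200 (199.9 in S265A), so that for these 3 members the untransduced sample lay within the range of the others. Cidea was 40.8 and 2.35 to 43.4, and Plin5 was 31.4 and 2.18 to 58.8, also within the range. Perilipins summed to 1509 FPKM in the untransduced sample and to 1245 to 1476 FPKM in the transduced samples. Between the phosphomimetic S265D and S265A, Cidea had a ratio of 5.94, Plin5 of 1.72, and the other members ran from 0.701 (Plin4) to 1.27 (Cideb).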
